A study of Homo sapiens with 28 samples.

Results

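Chromatin accessibility of Kuramochi cells that had adapted to 160 uM olaparib, the population called T160, was compared with that of untreated Kuramochi cells, called C. The comparison takes the 2 T160 and the 2 C libraries, 4 of the 20 samples with a column in the count table and of 28 in the labels, over all 105048 consensus peaks of that table. Kuramochi is an established human ovarian cancer cell line, labelled epithelial and BRCA2-mutant, and both groups carry that genotype. T160 cells were kept at the dose they had adapted to and sorted for low CD24 and high CD44. C cells received no drug and were also sorted on CD24 and CD44, with the gate not given, so a difference in sort and adaptation cannot be told apart. Libraries came from about 50000 cells each by the Omni-ATAC protocol and were sequenced paired-end. The labels call the samples duplicates without saying whether these were separate cultures, and the p-values therefore measure the spread between libraries, which may be technical.

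Olaparib blocks PARP1 and PARP2, enzymes that mark DNA breaks for repair, and is toxic to cells whose homologous recombination fails, as it does without BRCA2. In ATAC-seq a transposase inserts adapters where DNA is not covered by nucleosomes, so the number of reads in a peak rises with how open that stretch is and with how many copies of it the cells hold. These 2 quantities cannot be told apart in the counts, nor can a change in every cell be told from a change in the share of cells that are open at a site. Other populations appear below where T160 differs from them: T20, T40, T80 and T320, each adapted to the uM dose in its name and sorted like T160, and P10 and P320, persister cells made by 9 days at 10 or 320 uM.

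The promoters of ZNF66, ZNF85, ZNF737 and ZNF90, zinc-finger genes of chromosome 19 that were gained in T160, are shown first, because they lie between 19 and 25 Mb and resemble each other. Zinc-finger proteins of this family bind DNA, and many of them silence transposable elements. Each window runs from 250 bases before to 50 bases after the RefSeq start (GRCh38.p14), 5′ to 3′ on the gene's strand, with the letters CCAAT or, on the other strand, ATTGG in capitals. The windows are chr19:20776054-20776353 (plus strand), chr19:20923001-20923300 (plus), chr19:20565732-20566031 (minus) and chr19:20077750-20078049 (plus). These letters were picked after the sequences had been seen.
ZNF66: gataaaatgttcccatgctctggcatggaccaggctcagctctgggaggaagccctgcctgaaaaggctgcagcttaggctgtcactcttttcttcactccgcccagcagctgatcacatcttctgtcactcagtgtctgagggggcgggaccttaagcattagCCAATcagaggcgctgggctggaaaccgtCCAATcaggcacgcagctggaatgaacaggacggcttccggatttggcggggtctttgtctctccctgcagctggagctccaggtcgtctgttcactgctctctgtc
ZNF85: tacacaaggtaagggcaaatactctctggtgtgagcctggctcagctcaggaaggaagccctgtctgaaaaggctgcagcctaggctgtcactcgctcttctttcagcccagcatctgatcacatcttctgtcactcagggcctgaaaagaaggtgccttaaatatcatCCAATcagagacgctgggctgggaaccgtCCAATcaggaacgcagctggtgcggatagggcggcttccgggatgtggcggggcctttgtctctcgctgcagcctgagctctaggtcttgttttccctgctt
ZNF737: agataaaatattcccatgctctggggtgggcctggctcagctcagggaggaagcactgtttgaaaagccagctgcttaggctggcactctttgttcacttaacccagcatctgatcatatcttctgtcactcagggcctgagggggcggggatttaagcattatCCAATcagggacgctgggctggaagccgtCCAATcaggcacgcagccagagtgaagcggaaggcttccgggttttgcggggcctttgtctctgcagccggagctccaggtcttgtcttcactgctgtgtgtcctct
ZNF90: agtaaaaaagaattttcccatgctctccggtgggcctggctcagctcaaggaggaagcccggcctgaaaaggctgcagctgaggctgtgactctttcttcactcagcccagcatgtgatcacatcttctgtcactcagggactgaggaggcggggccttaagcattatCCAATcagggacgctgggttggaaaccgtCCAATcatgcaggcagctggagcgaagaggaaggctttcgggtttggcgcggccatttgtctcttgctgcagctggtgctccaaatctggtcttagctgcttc
All 4 windows hold CCAAT in 2 places a short distance before the start. Aligned in pairs, the windows are between 74.1% (ZNF85 and ZNF737) and 82.6% (ZNF66 and ZNF737) identical. Whether any reads were shared between copies was not tested, and the values of single genes in this cluster are uncertain to that extent. CCAAT or ATTGG stands in 35.8% of the 11960 promoter windows of genes with a listed start and a peak, in 40.2% of the 366 such windows that were gained in T160, in 31.1% of the 322 lost and in 7 of the 8 gained zinc-finger promoters of this cluster (87.5%). Over the chromosome 19 zinc-finger genes as a whole the letters stood in 54.5% of 202 windows, and in 48% of the 50 gained ones. A match describes letters and not a bound factor.

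Promoters of CD68 and SMAD3, gained in T160, are shown for the AP-1 letters TGACTCA or TGAGTCA (both strands), in capitals. CD68 is a lysosomal membrane protein and SMAD3 carries TGF-beta signals to the nucleus. The windows are chr17:7579388-7579687 and chr15:67125492-67125791, both on the plus strand.
CD68: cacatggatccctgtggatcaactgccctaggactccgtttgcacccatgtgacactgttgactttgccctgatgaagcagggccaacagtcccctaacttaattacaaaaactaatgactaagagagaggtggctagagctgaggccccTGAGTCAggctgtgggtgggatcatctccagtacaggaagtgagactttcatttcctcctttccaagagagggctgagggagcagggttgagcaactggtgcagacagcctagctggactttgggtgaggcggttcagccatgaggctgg
SMAD3: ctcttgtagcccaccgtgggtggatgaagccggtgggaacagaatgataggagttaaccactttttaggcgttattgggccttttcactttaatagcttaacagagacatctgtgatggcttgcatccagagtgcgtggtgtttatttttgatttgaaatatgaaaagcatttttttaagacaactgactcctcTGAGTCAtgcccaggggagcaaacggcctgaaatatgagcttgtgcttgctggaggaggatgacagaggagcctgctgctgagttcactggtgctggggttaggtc
The AP-1 letters were found in 3.14% of all 11960 windows, in 7.38% of the gained and in 2.8% of the lost ones. The promoter of PRSS2, which encodes a trypsinogen, was lost and is shown for the E-box letters CACCTG or CAGGTG (both strands), at chr7:142770720-142771019 on the plus strand.
PRSS2: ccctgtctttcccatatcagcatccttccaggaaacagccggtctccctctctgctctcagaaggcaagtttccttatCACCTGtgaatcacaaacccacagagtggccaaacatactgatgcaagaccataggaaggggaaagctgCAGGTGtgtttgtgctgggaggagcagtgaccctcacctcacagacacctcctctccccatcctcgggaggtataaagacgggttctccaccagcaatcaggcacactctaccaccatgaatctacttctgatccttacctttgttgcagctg
E-box letters of this kind stood in 18.8% of all windows, 16.1% of the gained and 30.1% of the lost. Both gained and lost windows were poorer in CpG than the rest, with a median of 17 and 15 CpG per 300 bases against 26 over all windows. No test was run on these shares.

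Across all peaks, 11530 (11%) were gained in T160 and 13169 (12.5%) were lost against C. Gained and lost mean a log2 fold change of at least 1 up or down with an adjusted p (edgeR's quasi-likelihood test, Benjamini-Hochberg) below 0.05. Gained peaks had a median log2 fold change of 1.46 and lost peaks one of -1.6, with 2011 gained by more than 2 log2 units and 3545 lost by more than that. Peaks far from genes moved more often than peaks at genes. Of the 43246 peaks over 50 kb from a gene start 14.2% were gained and 14.2% lost, while of the 15083 gene peaks, those within 1 kb of a gene start, 3.99% were gained and 3.61% lost. Where no start was listed, either end of the gene was used. For the gene values below each gene was represented by its gene peak with the most counts, and of these 14797 representing peaks 3.28% were gained and 2.84% lost, with a median log2 fold change of 0.205.

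Library depth and replicate agreement bound these values. Total counts in peaks were 11347046 and 22218981 in C and 14010424 and 19995595 in T160, and log2 CPM correlated over peaks at 0.92 between the C libraries and at 0.959 between the T160 libraries. C replicate 1 stood apart in that gene peaks held 28.1% of its counts, against 32.5%, 32.8% and 33.8% in C replicate 2 and the T160 libraries. The median of the gene peaks was 0.0504 without C replicate 1 and 0.397 without C replicate 2, so fold changes of gene peaks near that size are not read as a direction. Without T160 replicate 2 the counts fell to 8232 gained and 8263 lost, and 11340 (45.9%) of the called peaks were called in each of the 4 fits that left out 1 library. With the scaling factors taken from gene peaks alone, the median over all peaks moved from 0.0101 to -0.186 and the share of gained among called peaks from 46.7% to 33.4%. Of the markers of the labelled cell type, 24 of 30 epithelial and 18 of 23 Müllerian and serous ovarian lineage genes had a gene peak. KRT7, GRHL2 and FOLR1 were among those without one. KRT8 held 30.0 and 23.6 CPM in C and 27.5 and 25.2 CPM in T160, and CDH1 3.45 and 3.44 CPM against 3.23 and 3.14 CPM. CPM are counts scaled to library size with TMM factors. Of the 16 blood cell markers 10 had no gene peak, PTPRC and CD3E among them. Gene peaks were present for 7 of 12 endothelial, 4 of 10 hepatocyte, 10 of 12 neural and 9 of 11 fibroblast and mesothelial markers, and absent for PECAM1, ALB and DCN. The presence of a peak therefore does not separate the labelled cell type from the others.

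The largest rise at a gene start was that of LIPA, the lysosomal acid lipase that frees cholesterol and fatty acids from lipoproteins. Its peak at chr10:89342522-89343112 held 0.246 and 0.566 CPM in the C libraries and 4.29 and 7.11 CPM in the T160 libraries, a log2 fold change of 3.69 ± 0.47 (SE, adjusted p = 2e-05). Both T160 libraries lay above both C libraries, which the selection required. The C level of LIPA rests on 15 counts, and the value was 4.51 without C replicate 2. TUSC3, which takes part in N-glycosylation, stood at 0.574 and 0.566 CPM in C and at 6.26 and 6.53 CPM in T160 (3.48 ± 0.534, adjusted p = 0.0001), at a peak placed by a gene end. SERTAD4 (chr1:210236480-210237665) rose from 4.02 and 2.83 CPM to 21.0 and 31.7 CPM (2.97 ± 0.309, adjusted p = 4.1e-06). INPP4B, a lipid phosphatase of the PI3K pathway, rose from 4.51 and 4.2 CPM to 22.6 and 30.9 CPM at chr4:142405082-142406912 (2.63 ± 0.321, adjusted p = 1.4e-05). The rise of SLC35F1, placed by a gene end on chromosome 6, went from 4.84 and 3.77 to 22.4 and 35.8 CPM (2.78 ± 0.343, adjusted p = 1.6e-05). LSMEM1, on chromosome 7, went from 3.12 and 2.4 to 15.7 and 18.7 CPM (2.66 ± 0.273, adjusted p = 3.6e-06), and its value was 1.92 with the median shift of its 5 Mb window removed. The other 4 of the 10 largest rises were the zinc-finger genes ZNF66, ZNF85, ZNF737 and ZNF665.

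The 10 largest falls were of similar size. EHF, an epithelial ETS-family transcription factor, held 49.0 and 43.2 CPM in C and 7.24 and 3.66 CPM in T160 at chr11:34630461-34633078 (log2 fold change -3.1 ± 0.352, adjusted p = 7.8e-06). BSND, a subunit of kidney and inner-ear chloride channels, fell from 19 and 21.4 to 2.46 and 1.2 CPM at chr1:54998506-54999359 (-3.49 ± 0.387, adjusted p = 6.5e-06). PRSS2, whose promoter is shown above, fell from 51.4 and 59.6 to 6.61 and 4.23 CPM (-3.37 ± 0.424, adjusted p = 1.9e-05), in a locus with near-identical trypsinogen genes among which reads could be split. In each of these the groups did not overlap, which the selection required, and the T160 libraries held at most 7.24 CPM. HRNR, the gene of the epidermal protein hornerin, fell from 6.73 and 6.6 to 0.703 and 0.784 CPM (-3.15 ± 0.48, adjusted p = 9.9e-05). A second peak of WT1, inside the gene at chr11:32430570-32431420, fell from 9.68 and 12.3 to 1.27 and 0.993 CPM (-3.29 ± 0.432, adjusted p = 2.7e-05). The peak shared by HSPA1A and HSPA1L, which encode HSP70 chaperones and have a near-identical copy nearby, fell from 28.6 and 28.8 to 5.06 and 1.88 CPM (-3.08 ± 0.321, adjusted p = 4.1e-06) and stood at -3.93 without T160 replicate 1. ECHDC2 (-3.23 ± 0.672), FBXO47 (-3.16 ± 0.318) and MINDY4 (-3.12 ± 0.384) were 3 more of the 10. With the median shift of each 5 Mb window removed, BSND stood at -2.86, ECHDC2 at -2.6 and HRNR at -2.5. OR2T2, an olfactory receptor gene with close copies, had 3 counts in T160 and 98 in C, a ratio of 0.0306 with a 95% counting interval from 0.00621 to 0.0922. Its fitted value of -4.85 moved to -8.77 without T160 replicate 1 and to -3.71 without T160 replicate 2.

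**Figure D1:**
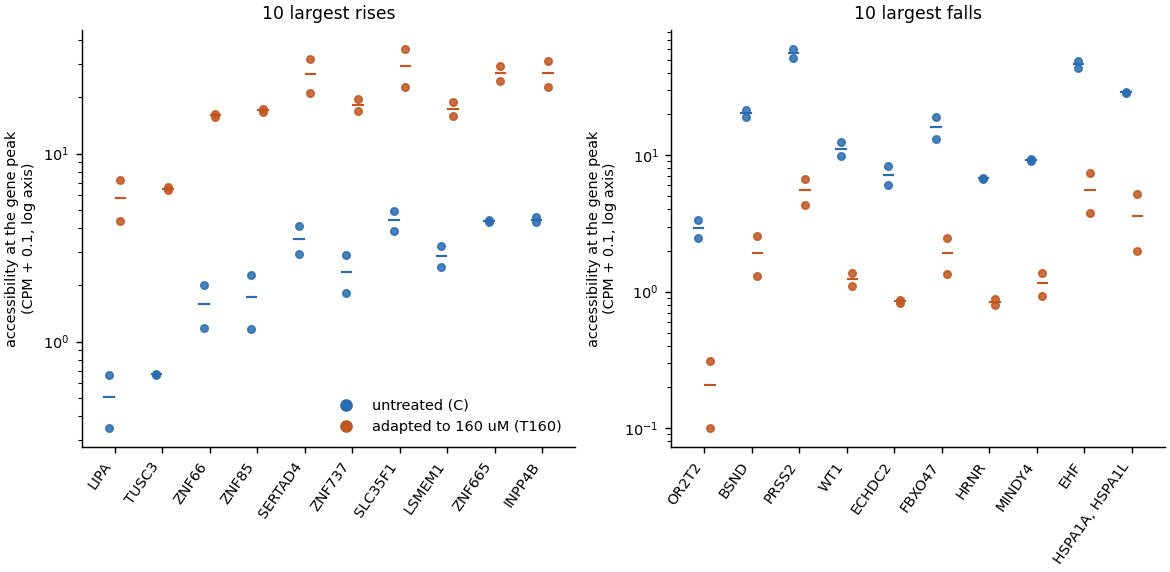
Accessibility in CPM plus 0.1 on a log axis, in each C (blue) and T160 (orange) library, at the gene peaks of the 10 largest rises and the 10 largest falls; short bars are the means of 2 libraries. The libraries of the groups do not overlap at any of these genes, which the selection required.

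Zinc-finger genes of chromosome 19 were the gene group with the most gained members. Of the 224 with a gene peak, 56 were gained (25%) and 1, ZNF541, was lost, with a median log2 fold change of 0.628 and 209 of 224 above 0. The 232 zinc-finger genes on other chromosomes had 10 gained and 8 lost and a median of 0.223, close to the 0.205 of all gene peaks. The gained genes fell into stretches. Between 51 and 54 Mb, all 35 zinc-finger genes with a peak were gained, from 1.02 for ZNF808 to 2.63 for ZNF665, with a median of 1.5. ZNF665 went from 4.35 and 4.24 CPM in C to 29.3 and 24.1 CPM in T160 (2.63 ± 0.24, adjusted p = 1.6e-06), at a peak placed by a gene end, and stood at 1.43 with its window's shift removed.

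The rise of this stretch was not limited to zinc-finger genes. Of the 14 other genes there 7 were gained and 1 was lost, and of all 117 peaks in the stretch 82 were gained and 3 lost, with a median of 1.32. Summed over the 117 peaks, accessibility was 975 and 1252 CPM in C and 2834 and 2770 CPM in T160, 2.52 times as high. When the median shift of each 5 Mb window was taken out, 2 of the 35 zinc-finger genes were still called. The window, from 50 to 55 Mb, has 211 peaks, and the 117 of the stretch are among them. Its median of 1.18 is thus largely set by the stretch. Taking it out removes most of the rise whatever its source, so this step says nothing about the number of DNA copies. More copies of the stretch and more open chromatin over it cannot be told apart in these counts.

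A second group of gained zinc-finger genes, between 19 and 25 Mb, differed from its neighbours. There 8 of 29 zinc-finger genes were gained and none of the 21 other genes was called in either direction, and with the window shift taken out 6 of the 29 were still gained. ZNF66 went from 1.89 and 1.08 CPM in C to 15.5 and 16.2 CPM in T160 at chr19:20776046-20777189 (3.47 ± 0.293, adjusted p = 1e-06). ZNF85 went from 1.07 and 2.17 to 16.6 and 17.1 CPM (3.3 ± 0.339, adjusted p = 3.6e-06) and stood at 3.97 without C replicate 2. ZNF737 went from 1.72 and 2.78 to 16.7 and 19.5 CPM (2.96 ± 0.262, adjusted p = 1.5e-06). Each of the 4 libraries lay on its group's side, which the selection required, and these 3 genes held at most 2.78 CPM in C. With the window shift removed they stood at 2.75, 2.62 and 2.27. The count of gained genes in the whole group of 224 was 17 with the window shift removed and 114 without C replicate 2, whereas the median stayed above 0 under every scaling tried (0.311 to 0.617).

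**Figure D2:**
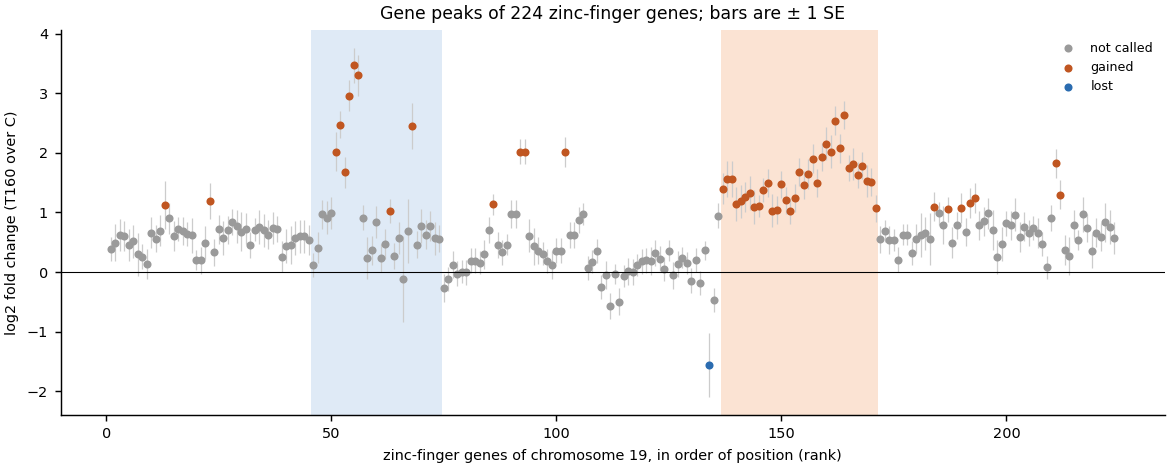
Log2 fold change of T160 over C, with bars of ± 1 SE, at the gene peaks of 224 zinc-finger genes of chromosome 19 in order of position; blue shading marks the 29 genes from 19 to 25 Mb and orange shading the 35 genes from 51 to 54 Mb. All 35 points in the orange band are gained, while in the blue band 8 gained points stand above neighbours that are not called.

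Shifts of whole stretches were not confined to chromosome 19. Chromosome 1 had 2.88% of its 11175 peaks gained and 27.9% lost and held 23.7% of all lost peaks. The share of all counts on chromosome 1 was 14.1% in each C library and 9.32% and 9.5% in the T160 libraries. Chromosome 13 lost 24.6% of its peaks and chromosome 9 lost 16.6%, while chromosomes 4 and 6 gained 16.6% and 16.4%. Of 573 windows of 5 Mb with at least 20 peaks, 61 had a median log2 fold change under -0.5, 31 of them among the 46 windows of chromosome 1, and 52 had one over 0.5.

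Single windows moved nearly as a block. The window with the lowest median, from 25 to 30 Mb on chromosome 9, had a median of -1.33 and 55.9% of its 111 peaks lost. Next came 225 to 230 Mb on chromosome 1, with a median of -1.24 and 174 of 289 peaks lost, where summed accessibility was 3512 and 3998 CPM in C and 1789 and 1831 CPM in T160. Rises were highest from 65 to 70 Mb (median 1.23) and from 80 to 85 Mb (median 1.2) on chromosome 6, and summed accessibility in the second of these was 678 and 712 CPM in C and 1291 and 1406 CPM in T160. With the window shift removed, 9346 peaks were gained and 11225 lost over the genome, fewer than the 11530 and 13169 without that step.

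**Figure D3:**
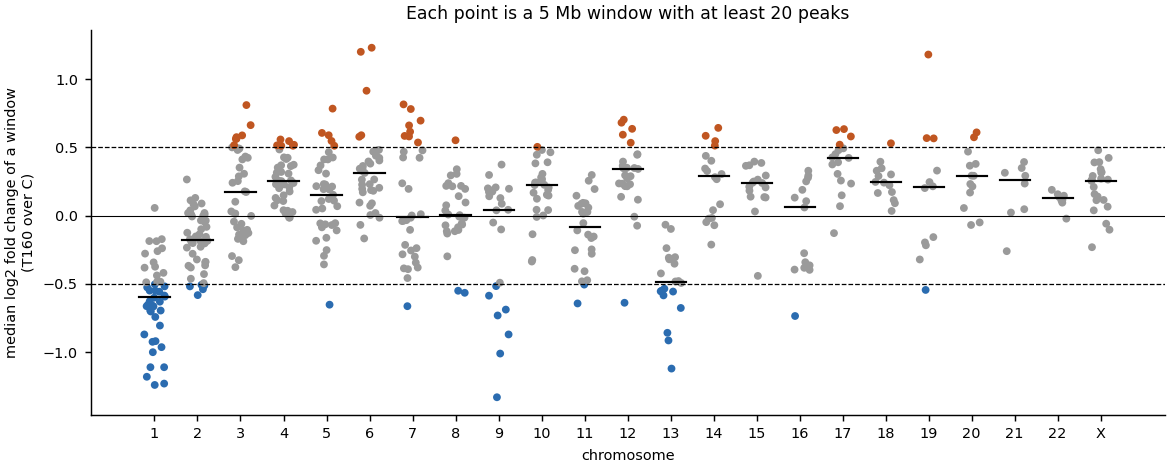
Median log2 fold change of T160 over C in each 5 Mb window with at least 20 peaks, by chromosome; blue points lie under -0.5, orange points over 0.5, and black bars are the medians of the windows. Most windows of chromosome 1 lie under -0.5, and 3 windows, on chromosomes 6 and 19, lie above 1.

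Müllerian and serous ovarian lineage genes, which mark the tissue this type of cancer resembles, included 7 lost and no gained members among 18 with a peak, with a median of -0.504. MSLN, the cell-surface antigen mesothelin, fell from 41 and 61.2 CPM in C to 10.3 and 8.41 CPM in T160 (log2 fold change -2.45 ± 0.252, adjusted p = 3.7e-06) at a peak placed by a gene end on chromosome 16. WT1, a zinc-finger transcription factor that pathologists stain for in serous tumours, fell from 39.1 and 60.3 to 19.6 and 21.3 CPM at its main peak, chr11:32433509-32436960 (-1.28 ± 0.198, adjusted p = 0.00011). That call ended without C replicate 2 (-0.931) and with the window shift removed (-0.741), and the window around WT1 had a median of -0.481. The other lost members were KLK8, SOX17, CAPS, KLK6 and MUC16, and PAX8, a lineage factor, stood at 0.19 ± 0.206 (adjusted p = 0.5). Without C replicate 2, 4 of the 18 were lost.

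Kallikreins, secreted serine proteases of which several mark ovarian cancer, lie just before the risen zinc-finger genes of chromosome 19, apart from KLKB1 on chromosome 4. KLK4, KLK5, KLK6 and KLK8 were lost, 4 of 8 members with a peak, and none was gained. Without C replicate 2, or without T160 replicate 2, 2 were lost. KLK8 went from 41.1 and 39.9 CPM to 18.0 and 17.3 CPM (-1.2 ± 0.201, adjusted p = 0.00022), whereas KLK10 stood at 0.66 ± 0.212 (adjusted p = 0.023). The median of the 8 was -0.517, and -1.66 with the shift of their windows removed. The window of KLK6 and KLK8, from 50 to 55 Mb, had a median of 1.18 and holds the risen stretch. Its removal may take off a rise that the kallikreins did not share.

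Epithelial identity genes had 1 gained and 2 lost members of 24, with a median of -0.23, where 3.28% of all representing gene peaks were gained and 2.84% lost. SPINT2, a membrane-bound protease inhibitor, was among the lost members, and KRT18, a keratin of simple epithelia, rose from 5.09 and 6.18 to 13.2 and 14.5 CPM (1.29 ± 0.234, adjusted p = 0.00042). Among 26 mesenchymal and matrix genes 4 were gained and none lost, with a median of 0.476. With the window shift removed 3 were gained and the median was 0.167, and with no fold minimum 11 were gained. FN1, fibronectin, rose from 5.58 and 5.37 to 13.8 and 13 CPM (1.29 ± 0.203, adjusted p = 0.00013). VIM and FAP were also gained. The C and T160 libraries did not overlap at any of these 5 called genes. The share of such peaks over all peaks was not counted, so this adds no support to the calls. The genes of the sort did not pass: CD24 stood at 10.4 and 15.0 CPM in C and 7.73 and 9.41 CPM in T160 (-0.57 ± 0.209, adjusted p = 0.04), and CD44 at 14.6 and 13.8 against 20.5 and 26.8 CPM (0.74 ± 0.228, adjusted p = 0.018), under the fold minimum. With the window shift removed CD44 was called at 1.22.

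Calls among DNA repair genes were near the share over all representing gene peaks. Of 33 homologous recombination and PARP genes 2 were gained (6.06%) and none lost, with a median of 0.287. None of 20 end protection and replication fork genes was called. Over all representing gene peaks 3.28% were gained and 2.84% lost, so these counts are not read as a result about repair genes. BRCA2 stood at 29.5 and 39.8 CPM in C and 28.1 and 28.2 CPM in T160 (-0.3 ± 0.221, adjusted p = 0.31), at a peak shared with ZAR1L. PARP1, the drug's target, stood at 20.9 and 27.6 against 14.5 and 15.8 CPM (-0.68 ± 0.22, adjusted p = 0.022), under the fold minimum, on a part of chromosome 1 whose window had a median of -1.24, and with that shift removed its value turned to 0.57. The 2 gained members were borderline. BRIP1, a helicase that binds BRCA1, went from 14.6 and 18.1 to 32.6 and 34.2 CPM (1.03 ± 0.198, adjusted p = 0.00071) and lost its call without C replicate 1 (0.885), without T160 replicate 2 (0.99) and with the window shift removed (0.559). SLFN11, which sensitises cells to drugs that damage DNA, went from 1.97 and 1.79 to 4.64 and 4.55 CPM (1.29 ± 0.408, adjusted p = 0.02) and lost its call in each fit that left out 1 of the 4 libraries (adjusted p from 0.055 to 0.11) and with the window shift removed (0.91).

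Drug transporters of the ABC family had 2 gained members of 14 (14.3%, against 3.28% of all representing gene peaks) and a median of -0.01. ABCB1, the efflux pump P-glycoprotein, which exports olaparib, went from 4.35 and 2.88 CPM to 10.8 and 10.6 CPM at chr7:87599616-87601257 (1.6 ± 0.249, adjusted p = 0.00012). ABCG1, a cholesterol exporter, went from 4.35 and 3.11 to 8.51 and 10.6 CPM (1.38 ± 0.341, adjusted p = 0.0044), with the call lost without C replicate 2 (1.14) or T160 replicate 2 (1.21). ABCG2, another drug pump, held 4.27 and 3.68 CPM in C and 3.94 and 3.87 CPM in T160.

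Calls at the gene peaks of stress pathways are given list by list, and differences between the lists were not tested. In the first list below 13.6% of members were gained, against 3.28% of all representing gene peaks, a difference that was not tested. The integrated stress and unfolded protein response list had 3 gained members of 22 (TRIB3, ERN1 and ASNS) and a median of 0.453 (1 gained without C replicate 1 and 6 without C replicate 2). TRIB3, a pseudokinase induced by that response, went from 5.09 and 5.56 to 9.7 and 14.6 CPM (1.19 ± 0.23, adjusted p = 0.00073) but stood at 0.86 without T160 replicate 2 and at 0.662 with the window shift removed. ERN1, the stress sensor IRE1, stood at 1.02 ± 0.211 (adjusted p = 0.0012) and lost its call without C replicate 1 (0.906), without T160 replicate 1 (0.87) and with the window shift removed (0.555). None of 21 NRF2 and detoxification genes and none of 28 AP-1 and immediate early genes was called, with medians of 0.404 and 0.256. At shares of 3.28% gained and 2.84% lost over all representing gene peaks, lists of that size would hold few calls. Of 22 p53 targets GDF15, a secreted stress cytokine, was gained, from 2.87 and 2.64 to 7.52 and 8.94 CPM (1.58 ± 0.345, adjusted p = 0.0018), and 5 were gained without C replicate 2.

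Immune genes had calls in both directions. Among all representing gene peaks 3.28% were gained and 2.84% lost, and differences of the lists from these shares were not tested. TLR4, the receptor for bacterial lipopolysaccharide, rose from 2.71 and 1.37 CPM to 11.5 and 11.9 CPM (2.58 ± 0.321, adjusted p = 1.7e-05), and the chemokine gene CXCL1 from 8.78 and 7.17 to 18.1 and 18.5 CPM (1.21 ± 0.213, adjusted p = 0.00034; 0.912 and not called with the window shift removed). With CXCL8 these were the 3 gained of 19 NF-kB, chemokine and cytokine genes, whose median was 0.123. Of 27 interferon response genes 1 was lost, IFI27, from 10.2 and 11.2 to 4.5 and 3.61 CPM (-1.41 ± 0.229, adjusted p = 0.00017), and none of 16 antigen presentation genes was called.

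Calls among growth pathway genes were few. All representing gene peaks had 3.28% gained and 2.84% lost, so the counts below are not read as results about the pathways. SMAD3 rose from 13.5 and 16.6 to 40.2 and 43.5 CPM (1.47 ± 0.224, adjusted p = 0.0001), and BMP4, a secreted TGF-beta family ligand, from 20.1 and 19.6 to 40.2 and 40.8 CPM (1.03 ± 0.183, adjusted p = 0.00036; 0.472 with the window shift removed and 0.83 with scaling from gene peaks alone), the 2 gained of 24 TGF-beta and BMP genes. DKK1, a Wnt inhibitor and the 1 gained of 24 Wnt, Notch and stemness genes, stood at 1.14 ± 0.34 (adjusted p = 0.014) and lost its call without C replicate 2 (0.743), without T160 replicate 1 (1.05) and with scaling from gene peaks alone (0.917). GAS6, the ligand of the AXL receptor and the 1 called of 29 receptor tyrosine kinase and ligand genes, fell from 5.83 and 4.67 to 1.97 and 1.99 CPM (-1.4 ± 0.356, adjusted p = 0.0056), in a window of chromosome 13 with a median of -1.12, and stood at -0.248 with that shift removed. Of 22 cholesterol and fatty acid synthesis genes 1 was lost and none gained. No member was called among 26 genes of mitosis, 21 of glycolysis and hypoxia, 20 of the Hippo pathway, 26 chromatin and DNA methylation enzymes and 14 constitutive genes, whose medians lay between 0.138 and 0.283. Without C replicate 2, 3 chromatin enzymes and 3 constitutive genes were gained.

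Neural marker genes were gained in 6 of 10 cases and lost in none, with a median of 1.1. With the window shift removed 4 were gained and the median was 0.7, and with scaling from gene peaks alone 3 were gained. SNAP25 and SYT1, proteins of synaptic vesicle release, rose from 10.5 and 11.9 to 31.6 and 31.9 CPM (1.5 ± 0.185, adjusted p = 1.6e-05) and from 10.2 and 11.7 to 35.4 and 33.1 CPM (1.64 ± 0.266, adjusted p = 0.00017; 1.01 with the window shift removed). GFAP, OLIG2, MAP2 and GAP43 were the others gained, and the summed level of the 10 genes was 86.7 and 92.5 CPM in C and 180 and 182 CPM in T160. The neural transcription factor gene NEUROD1 had no gene peak, and RBFOX3, a marker of mature neurons, stood at -0.21 ± 0.358 (adjusted p = 0.69). Protocadherins, adhesion molecules best known from neurons, had 9 gained and no lost members of 42 and a median of 0.514, and 7 of the 9 belong to the PCDHB cluster on chromosome 5. PCDHB11 rose from 6.73 and 5.52 to 17.6 and 17.1 CPM (1.51 ± 0.262, adjusted p = 0.00029), while PCDHB14 stood at -0.74 ± 0.277 (adjusted p = 0.046).

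Other cell type markers moved in both directions. CD68, on the blood cell list but also expressed outside that lineage, rose from 37.9 and 27.5 to 106 and 88.7 CPM (1.58 ± 0.217, adjusted p = 4e-05). It was the 1 called of 6 blood cell markers with a peak, of which 3 had a log2 fold change above 0 and 3 below. Their sum was 86.9 and 71.2 CPM in C and 152 and 127 CPM in T160. That rise was the rise of CD68 and not one of the list as a group. Endothelial markers had EMCN (1.9 ± 0.318, adjusted p = 0.00022) and ROBO4 gained and TIE1 (-1.49 ± 0.272, adjusted p = 0.00045; -0.98 with the window shift removed) and VWF lost among 7. APOA1, a hepatocyte apolipoprotein gene, fell from 19 and 25.7 to 5.41 and 3.81 CPM (-2.29 ± 0.398, adjusted p = 0.00029), the 1 called of 4. LRRN4 (-1.23 ± 0.205, adjusted p = 0.00021; -1.87 with the window shift removed) and PDPN were lost among 9 fibroblast and mesothelial markers, PDPN at -1.03 ± 0.232 (adjusted p = 0.0023) and no longer called without C replicate 2 (-0.748), without T160 replicate 2 (-0.924) or with the window shift removed (-0.302). Whether other cells had a part in any of these changes was not tested. Among the other families, 3 of 30 HOX genes were gained (HOXB9, HOXA4 and HOXC13), 6 of 19 olfactory receptor genes were lost, and none of 55 replication-dependent histone genes, 18 integrins, 15 S100 genes, 15 KLF factors, 13 matrix metalloproteinases and 11 claudins was called. Without C replicate 2, 6 HOX genes were gained and 3 olfactory receptor genes lost, and the latter number was also 3 without T160 replicate 2. Collagens had 2 gained and 2 lost of 34, SOX factors 2 lost of 16 and keratins 1 gained of 11. The shares over all representing gene peaks were 3.28% gained and 2.84% lost, and no family was tested against them.

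**Figure D4:**
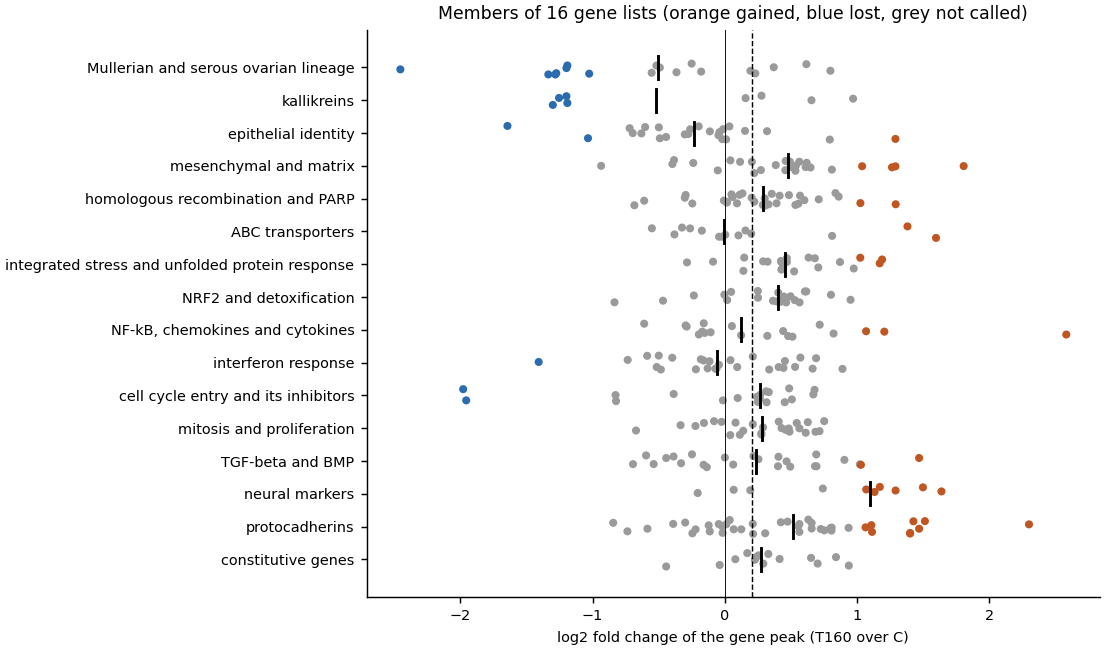
Log2 fold change of T160 over C at the gene peak of each member of 16 lists, 1 point a gene, orange for gained, blue for lost and grey for not called; black bars are list medians and the dashed line is the median of all gene peaks, 0.205. The lineage, kallikrein and epithelial lists lie to the left of the dashed line and the neural markers to the right.

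Distal peaks, over 1 kb from gene starts, included some of the clearest changes. The peak at chr19:53181526-53183744, inside ZNF665, held 3.04 and 1.51 CPM in C and 45.3 and 36.6 CPM in T160 (4.24 ± 0.297, adjusted p = 3.2e-07). In the same stretch a peak 19.4 kb from ERVV-1, a gene of retroviral origin, at chr19:52991155-52994478 rose from 9.36 and 7.07 to 67.4 and 55.3 CPM (2.91 ± 0.231, adjusted p = 7.3e-07). Outside it, a peak inside CYTH1 at chr17:78706240-78707832 rose from 2.46 and 2.64 to 16.2 and 18.0 CPM (2.73 ± 0.217, adjusted p = 7.3e-07), and one at chr11:134948823-134950193, with no gene start within 50 kb, from 2.05 and 1.56 to 14.2 and 14.9 CPM (3.04 ± 0.243, adjusted p = 7.8e-07). Of the lost peaks, chr1:50620691-50621666, inside FAF1, fell from 26.3 and 32.9 to 1.83 and 1.88 CPM (-3.99 ± 0.27, adjusted p = 3.2e-07). The peak at chr1:4602204-4604362 fell from 58.9 and 60.7 to 7.87 and 6.53 CPM (-3.06 ± 0.215, adjusted p = 3.2e-07). A peak inside CAGE1 at chr6:7347077-7348278 fell from 37.5 and 40.0 to 5.06 and 2.93 CPM (-3.3 ± 0.231, adjusted p = 3.2e-07), and one 8.77 kb from TAF1L at chr9:32644434-32645572 from 30.9 and 29.2 to 4.22 and 4.08 CPM (-2.86 ± 0.209, adjusted p = 4.4e-07). These 8 were the peaks with the smallest p under the naming rule, which required that the groups did not overlap. With the window shift removed the peak in ZNF665 stood at 3.03, that near ERVV-1 at 1.69, that in FAF1 at -3.35, the other on chromosome 1 at -2.32 and that near TAF1L at -1.9.

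T160 was then set against the populations next to it in dose. Against T80 no peak was called in either direction (0% gained, 0% lost), with 8113 peaks at an unadjusted p under 0.05. DESeq2 called 125 higher and 26 lower, edgeR fitted to these groups alone 108 and 20, and edgeR with a replicate block 121 and 40. The absence of calls in the main test does not show that T160 and T80 were alike.

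Against the mean of T20, T40 and T80, 919 peaks were higher in T160 (0.875%) and 423 lower (0.403%). Of the 919 higher peaks, 224 lay on chromosome 1, and C was above the same mean in 737 (80.2%), against 48.3% of all peaks. Of the 423 lower peaks, C was above that mean in 89 (21%). These peaks were selected against the same mean, so spread in it moves both shares from 48.3% by selection alone. The shares do not show a return toward C. In relation to C, 605 of the 919 were not called in T160, 222 were gained and 92 lost. These calls depended on 1 library: without T160 replicate 2, 17 higher and no lower peaks were called, and without T160 replicate 1, 860 and 178. Without T20 replicate 2 there were 557 and 184.

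TMCC2 had 1 of the smallest p. Its peak at chr1:205247280-205250084 held 48.8 and 58.1 CPM in C, between 12.2 and 16.9 CPM in the 6 libraries of T20, T40 and T80, 36.5 and 42.9 CPM in T160 and 16.2 and 14.2 CPM in T320. The T160 value was 1.36 ± 0.137 log2 units above the mean of the 3 doses (adjusted p = 6.7e-05) and 1.39 ± 0.181 above T320 (adjusted p = 0.00052), and the first call ended with the window shift removed (0.907). CSRP1, a LIM-domain protein, held between 2.65 and 10.3 CPM in those 6 libraries and 15.2 and 22.2 CPM in T160 (1.86 ± 0.173, adjusted p = 5e-05), near the 14.4 and 16.5 CPM of C. Lower in T160 were GFRA1, the receptor of the growth factor GDNF, with 2.25 and 3.03 CPM against 5.6 to 13 CPM (-1.61 ± 0.24, adjusted p = 0.0018), and VASH1, an inhibitor of blood vessel growth, with 4.78 and 4.96 CPM against 9.02 to 12 CPM (-1.11 ± 0.17, adjusted p = 0.0021). CRISPLD1 (-1.07 ± 0.183, adjusted p = 0.0046) and the peak shared by DUOX2 and DUOXA2, an enzyme that makes hydrogen peroxide and its maturation factor (-1.27 ± 0.22, adjusted p = 0.0047), were lower too. Without T160 replicate 2 all 4 falls lost their call, at -1.85 for GFRA1 (adjusted p = 0.1), -1.14 for VASH1 (0.17), -0.985 for CRISPLD1 (0.27) and -1.49 for DUOX2 and DUOXA2 (0.17). The call of DUOX2 and DUOXA2 was also lost without T160 replicate 1 (adjusted p = 0.07), that of CRISPLD1 without T40 replicate 2 (-0.994) or T20 replicate 2 (-0.975), and those of VASH1 (-0.801) and CRISPLD1 (-0.675) with the window shift removed.

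Against T320, 2454 peaks were higher in T160 (2.34%) and 1600 lower (1.52%). C was above T320 in 91.3% of the higher and in 13.1% of the lower peaks, against 50.3% of all peaks. T320 also served to select these peaks, so spread in T320 moves both shares by selection alone. With scaling from gene peaks alone the balance turned, to 1584 higher and 1707 lower. Without T160 replicate 2 the counts were 241 and 40, without T320 replicate 2 they were 321 and 72, and without T160 replicate 1 they were 2077 and 616.

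REC8, a cohesin subunit of meiosis, held 44.8 and 58.5 CPM in C, 32.6 and 40.3 CPM in T160 and 9.42 and 4.26 CPM in T320, so that T160 was 2.46 ± 0.303 log2 units above T320 (adjusted p = 0.00044; 3.1 without T320 replicate 1). ODAD1, a docking protein of dynein arms in cilia, held 42.2 and 56.1, 46.4 and 50.7, and 15.1 and 17.8 CPM in these groups (1.56 ± 0.178 above T320, adjusted p = 0.00044). Both stood in T160 at a level whose difference from C was not called. HHIPL2 was lower in T160 than in T320, at 9.84 and 11.1 against 22.8 and 33.7 CPM (-1.44 ± 0.25, adjusted p = 0.0035), and far lower than the 60.2 and 75.1 CPM of C (-2.69 ± 0.256, adjusted p = 2e-06). MICAL2, an actin-oxidising enzyme, was lower than in T320 at 6.75 and 5.12 against 14.6 and 13.9 CPM (-1.27 ± 0.192, adjusted p = 0.0014), TSPAN14 by -1.52 ± 0.256 (adjusted p = 0.0029) and ERGIC1 by -1.32 ± 0.228 (adjusted p = 0.0032). Without T160 replicate 2 the calls of HHIPL2, MICAL2 and ERGIC1 ended (adjusted p of 0.064, 0.063 and 0.076), without T320 replicate 2 those of HHIPL2, ERGIC1 and TSPAN14 (0.077, 0.072 and 0.055), and with the window shift removed that of MICAL2 (-0.835).

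The cell cycle inhibitors CDKN2A and CDKN2B, neighbours on chromosome 9, were lower in T160 than in C and higher than in the mean of T20, T40 and T80 and than in T320. Both were lost against C, the 2 lost of 19 genes of cell cycle entry, with none gained. CDKN2A held 43.0 and 64.7 CPM in C and 12.2 and 15.2 CPM in T160 at chr9:21993963-21997043 (-1.98 ± 0.366, adjusted p = 0.0005), and CDKN2B held 32.9 and 60.3 CPM in C and 9.28 and 14.7 CPM in T160 at chr9:22008262-22009728 (-1.96 ± 0.36, adjusted p = 0.00048). The window had a median of -1.01, and with it removed the values were -0.972 and -0.946 and neither was called. At the CDKN2A peak T20 held 9.91 and 3.14 CPM, T40 held 0.801 and 0.204 CPM, T80 4.92 and 4.58 CPM and T320 0.942 and 0.179 CPM, and T160 was 2.55 ± 0.331 log2 units above the mean of T20, T40 and T80 (adjusted p = 0.00074) and 4.88 ± 0.547 above T320 (adjusted p = 0.00044). For CDKN2B the same differences were 2.81 ± 0.336 (adjusted p = 0.00039) and 4.35 ± 0.517 (adjusted p = 0.00044), and a further CDKN2A peak, chr9:21973975-21976099, stood 3.59 ± 0.442 above the mean of the 3 doses (adjusted p = 0.00046; 4.75 without T40 replicate 2). The difference from T320 ran from 3.85 to 6.2 for CDKN2A and from 3.43 to 5.45 for CDKN2B when T320 replicate 2 or 1 was left out, and the CDKN2B difference from the 3 doses was not called without T160 replicate 2 (2.43, adjusted p = 0.088).

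The low level extended over a run of neighbouring peaks. From chr9:21854369 to 22119830, 265 kb, 16 consecutive peaks each had a mean under 0.6 CPM in T40, a limit chosen after the values had been seen, and 14 of them were lost in T160 against C. Summed over the run, the libraries held 221 and 292 CPM in C, 57.8 and 66.7 CPM in T160, 44.2 and 14.5 CPM in T20, 22.8 and 17.8 CPM in T80, 1.7 and 1.17 CPM in T40 and 6.16 and 0.717 CPM in T320. T160 thus held 24.3% of the level of C, against 11.5% in T20, 7.93% in T80, 0.561% in T40 and 1.34% in T320. P10 held 253 and 253 CPM and P320 264 and 249 CPM. Fewer DNA copies in part of the cells and less open chromatin cannot be told apart here.

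**Figure D5:**
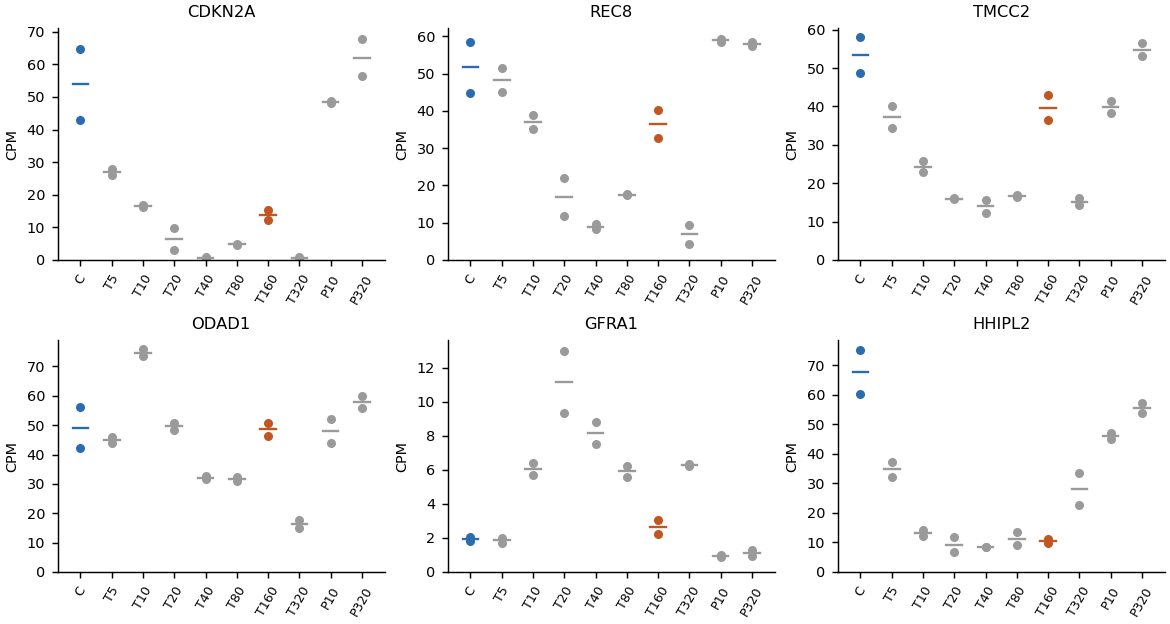
Accessibility in CPM at the gene peaks of 6 genes in each library of the 10 populations, with C in blue, T160 in orange and the others in grey; bars are means of 2 libraries and all axes start at 0. At CDKN2A, REC8, TMCC2 and ODAD1 the T160 libraries lie above those of T320, and at GFRA1 and HHIPL2 below them.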

How the data were processed

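Per the labels, the deposited table gives consensus peaks with the authors' read counts for each library, here whole numbers without normalization. The submitters' processing notes name the build GRCh38 and the tools DESeq2, MACS2, HOMER 4.1, Trim Galore, SAMtools, Picard, Bowtie2 and deepTools 3.1 and 3.5.1, with no roles. How duplicates were handled, and whether peak starts count from 0, is not given in the sources used here; coordinates are printed as deposited. Intervals cover counting error only.

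Counts of all 20 libraries (10 groups, 2 replicates each, 10 residual degrees of freedom) were fitted with edgeR 4.0.16 (robust quasi-likelihood, TMM, filterByExpr, no replicate block, R 4.3.3), adjusted over all 105048 peaks. The fit was also run on simulated counts with a constant spread and no shifts of whole windows. That run checks the code and does not measure error rates in these data. The 8 samples without a column were not analysed here. Peaks were placed with RefSeq starts (11960 genes) or, where none was listed, gene ends (2837 genes). Only 2 libraries a group limit precision.

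The text names the 10 largest rises and falls at gene peaks that reach 2 CPM in a group, do not overlap between groups and keep their call without each library. It also names the 2 clearest called members of every list by adjusted p, CD24, CD44, BRCA2, PARP1, SLFN11, ABCB1, CDKN2A, CDKN2B, CXCL1, MSLN and WT1, 4 distal peaks each way, and 4 gene peaks each way against the neighbouring doses. KRT8, CDH1, PAX8, ABCG2, RBFOX3, KLK8, KLK10, ZNF541, ZNF808, PCDHB11 and PCDHB14 fall outside this rule and were chosen after their values were seen. Some genes that the rule names are not reported here. The comparison, the 28 gene lists and the 16 families were chosen with earlier results of these data known. Called counts, list counts and named values were recomputed with total-count, RLE or gene-peak TMM scaling, a trended offset (limma 3.58.1), a 5 Mb window offset, a replicate block, DESeq2 1.42.0, other filters, the compared groups alone, no fold minimum (counts only) and without each library, and list medians also over all peaks within 50 kb of a gene. Results by chromosome, window and distance class were not recomputed in this way.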

Additional observations from a re-analysis of the deposited data

Results flagged for a closer look

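At 8 of the peaks reported above, T160 was called both against C and against a neighbouring dose, by a test of each difference in the same edgeR fit, with 11 differences from neighbouring doses among them. CDKN2A stood 2.553 log2 units higher in T160 than in the mean of T20, T40 and T80 and 4.877 higher than in T320, and CDKN2B 2.805 and 4.352 higher. The further CDKN2A peak stood 3.594 and 3.719 higher. SLC35F1 was higher in T160 than in T320 by 1.398, and GDF15 was higher than in the mean of the 3 lower doses by 1.142. Lower in T160 than in T320 were the distal peak inside CAGE1, with a difference of -1.03, MICAL2, with -1.266, and HHIPL2, with -1.437. The further CDKN2A peak, MICAL2 and HHIPL2 were chosen for their difference from a neighbouring dose. These contrasts share the T160 libraries with the comparison against C.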

How the results depend on the processing

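No called value of a named peak changed direction under the alternatives run; PARP1, not called, turned from -0.68 to 0.57 with the window offset. Of 1206 comparisons of a named value with an alternative, 1129 stayed on their side of the threshold, 75 lost their call and 2 gained one, and the cause was not tested. The 10 largest rises and falls and the 4 distal peaks each way were selected for keeping their call against C without each C and T160 library. Those comparisons could not lose it, so the 1129 overstates how firm called peaks are in general. For T160 against C, gained peaks were 7683 with TMM from gene peaks alone and 17985 with no fold minimum, and leaving out each library in turn gave 8232 to 12941 gained and 8263 to 12476 lost.

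For T160 against T80, higher and lower peaks were 11 and 0 with total-count scaling, 42 and 3 with TMM from gene peaks, 49 and 11 with the trended offset, 121 and 40 with the replicate block, 63 and 17 with the replicate block and window offset, 125 and 26 with DESeq2, 108 and 20 with the compared groups alone, and 0 without each library.

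For T160 against the mean of T20, T40 and T80, higher peaks were 574 with the window offset, 612 with the compared groups alone, 2292 with no fold minimum and 17 to 1270 without single libraries. Lower peaks were 245 with the window offset, 782 with the replicate block, 664 with DESeq2, 1000 with no fold minimum and 0 to 536 without single libraries. For T160 against T320, higher peaks were 1584 with TMM from gene peaks, 1619 with the window offset, 3698 with no fold minimum and 241 to 3138 without single libraries. Lower peaks were 2957 with the replicate block, 2431 with no fold minimum and 40 to 2023 without single libraries.

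Replicate numbers were not taken to pair the samples, because the labels do not say that they do. The differences between replicates correlated at 0.262 between T160 and C and at 0.294 to 0.412 between T160 and the other adapted groups. With P10 and P320 they correlated at -0.0372 and -0.087. In C and each adapted group replicate 1 had fewer counts than replicate 2. Whether the numbers mark a batch shared by these groups, which the main fit would leave in, was not tested. In the comparison with C the replicate block gave 12256 gained and 15108 lost. Where leaving out a library left 1 in a group, that library was assumed to vary like the others.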
